A study of Mus musculus with 10 samples.

Results

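The genes of MHC class II antigen presentation were followed in B16F10 melanoma tumors that lacked or kept *Mir25* in the tumor cells, in mice under immunotherapy. The 10 genes were chosen by symbol: the classical chains *H2-Aa*, *H2-Ab1* and *H2-Eb1*, the invariant chain *Cd74*, the peptide editors *H2-DMa*, *H2-DMb1* and *H2-DMb2*, their modulators *H2-Oa* and *H2-Ob*, and the transactivator *Ciita*. All 10 were found, each on 1 of the 55401 gene rows. The 8 H2 genes lie together on chromosome 17 of GRCm38, from *H2-Oa* at 34092340 to the end of *H2-Eb1* at 34316674, *Ciita* lies on chromosome 16 from 10480059 to 10528418, and *Cd74* lies on chromosome 18. B16F10 is a pigmented melanoma line that arose in the C57BL/6 strain and can be transplanted within it.

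The 5 KO tumors grew from B16F10 cells in which CRISPR-Cas9 had been aimed at *Mir25*, and the 5 NTC tumors from cells with a non-targeting guide. The study made such KO cells both as transduced, antibiotic-selected populations and as single-cell clones. The sample titles do not say which gave these tumors. In a population, edited and unedited alleles may be present together. The mice were C57BL/6J females aged 9 to 12 weeks. Every mouse was under Comb: irradiated B16 cells that secrete GM-CSF (GVAX) were injected on days 1 and 4, the antibody αPD-1 followed on days 6, 9 and 12 with 10 mg per kg each time, and tumors of both groups were taken on day 15. The host's own cells carried no edit, and no tumor without Comb entered these data. Labels number the tumors 1 to 5 within a group. They do not state that each came from its own mouse, so a p-value measures the spread between these tumors.

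MHC class II molecules present peptides from the endosomal pathway to CD4+ T cells. An α and a β chain pair with the invariant chain, which blocks the groove until proteases degrade it, and H2-DM then exchanges the remaining fragment for peptide, with H2-O as its modulator. Dendritic cells, B cells and macrophages carry these molecules, and interferon-γ can induce them in other cells, melanoma cells included. *Ciita* is the master regulator: it binds no DNA itself and is recruited by the RFX complex, NF-Y and CREB on the X and Y boxes of class II promoters.

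The promoters are shown because the members share a regulator whose docking sequence lies there. RefSeq windows on GRCm38.p6, 300 bases long from 250 before to 50 after the start of transcription, were given for 7 of the 10 genes; *H2-Ab1*, *Cd74* and *Ciita* had none. In 6 of these 7, the letters CNNNNAAC, which fit the core of the X box, were followed by ATTGG, the Y box letters, after 20 to 32 bases. The pattern was spelled out after the sequences had been seen. It occurred on either strand in 559 of all 32851 windows (1.7%), where CNNNNAAC alone occurred in 81.6% and ATTGG alone in 37.4%. Neither of the 2 windows of *H2-DMa* held the pair of motifs, which says only that these letters are not in those windows. The stretches are written 5′ to 3′ on the gene's own strand, with both motifs in capitals; the last belongs to *Btn2a2*, another known target of RFX and *Ciita*.
H2-Aa: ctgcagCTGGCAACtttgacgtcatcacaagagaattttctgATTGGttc
H2-Eb1: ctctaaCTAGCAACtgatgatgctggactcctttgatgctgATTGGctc
H2-DMb1: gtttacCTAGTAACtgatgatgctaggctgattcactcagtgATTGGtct
H2-DMb2: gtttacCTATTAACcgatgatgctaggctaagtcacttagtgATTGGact
H2-Oa: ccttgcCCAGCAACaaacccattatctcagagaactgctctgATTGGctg
H2-Ob: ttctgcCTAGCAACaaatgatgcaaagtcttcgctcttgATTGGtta
Btn2a2: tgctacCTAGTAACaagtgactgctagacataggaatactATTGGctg

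They lie at chr17:34287864-34287913 on the minus strand for *H2-Aa*, and on the plus strand at chr17:34305767-34305815 for *H2-Eb1*, chr17:34153088-34153137 for *H2-DMb1*, chr17:34145117-34145166 for *H2-DMb2*, chr17:34092294-34092343 for *H2-Oa* and chr17:34238809-34238855 for *H2-Ob*. The stretch of *Btn2a2* is chr13:23488901-23488948 on the minus strand. The first motif began 79 bases before the start of transcription in *H2-Oa*, 84 in *H2-Aa*, 85 in *Btn2a2*, 90 in *H2-Ob*, 94 in *H2-Eb1*, 97 in *H2-DMb1* and 126 in *H2-DMb2*. The spacing between the motifs was 28 bases in *H2-Aa*, *H2-DMb1*, *H2-DMb2* and *H2-Oa*, 27 in *H2-Eb1*, 26 in *Btn2a2* and 25 in *H2-Ob*. In *H2-Oa* a further match of CNNNNAAC overlapped the first and lay 24 bases from ATTGG. The shared pattern is a description of the letters and no evidence of binding in these tumors.

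The sequence libraries held 23243707 to 27006075 reads on genes in KO tumors and 11896643 to 28682130 in NTC tumors. NTC replicate 1 stood apart: it had the fewest reads on genes, a normalization factor of 0.628 where NTC replicates 2 to 5 had 1.02 to 1.11, and 42.9% of its reads on no gene. CPM, the unit of all levels here, scales each count by the library's reads on genes times that normalization factor. The leukocyte score is the mean log2 CPM of 10 genes expressed across leukocytes, and NTC replicate 1 had 7.51, a value within the 5.77 to 7.88 of the KO group and above the 4.76 to 6.46 of NTC replicates 2 to 5. Of the 10, *Arhgdib* varied little, from 213 to 270 CPM in KO and from 205 to 271 in NTC tumors (log2 fold change 0.08). *Ptprc* ran from 112 to 656 and from 53.1 to 484 CPM. The *Mir25* row held 0 counts in every library and gives no check of the labels. Its host gene *Mcm7* was at 103 ± 31.0 CPM in KO and 113 ± 24.6 CPM in NTC tumors (SD, n = 5). All 7 melanoma cell genes were detected in every tumor, with summed levels of 11774 to 19339 CPM in KO and 11282 to 21329 CPM in NTC tumors.

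The mean levels of the classical chains and the invariant chain were higher in KO than in NTC tumors, but the tumors of each group spread so widely that no difference passed the test. *H2-Aa*, the α chain of I-A, was at 1245, 2321, 870.0, 397 and 2132 CPM in KO replicates 1 to 5 and at 971, 399.8, 729, 320.3 and 1079 CPM in NTC replicates 1 to 5. *H2-Ab1*, its β chain partner, was at 769, 1649, 524, 267 and 1504 CPM in KO and at 773, 207, 444, 169.95 and 612 CPM in NTC replicates. KO replicates 2 and 5 were the highest of all for both chains, KO replicate 4 sat among the low NTC tumors, and the groups overlapped. *H2-Eb1*, the β chain of I-E, was at 625, 1327, 496, 239 and 1140 CPM in KO and at 469, 180.3, 377.01, 148 and 538 CPM in NTC replicates. *Cd74*, the invariant chain, was at 1553, 3271, 1159, 569 and 2909 CPM in KO and at 1256, 522, 1002, 407 and 1424 CPM in NTC replicates. For all 4 genes KO replicates 2 and 5 were the highest, and NTC replicates 2 and 4 and KO replicate 4 the 3 lowest. C57BL/6 mice lack a functional I-E α chain gene, and *H2-Ea* was listed at 0 counts in every tumor.

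The mean level was 1393 ± 821 CPM in KO against 699.7 ± 336 in NTC for *H2-Aa*, 943 ± 607 against 441 ± 259 for *H2-Ab1*, 765 ± 454 against 342 ± 173 for *H2-Eb1* and 1892 ± 1155 against 922 ± 446 for *Cd74* (SD, n = 5). The log2 fold changes were 0.99 for *H2-Aa*, 1.10 for *H2-Ab1*, 1.16 for *H2-Eb1* and 1.04 for *Cd74*, with standard errors of 0.49, 0.55, 0.49 and 0.49. None passed edgeR's quasi-likelihood test, with adjusted p = 0.604, 0.615, 0.524 and 0.594. In bulk tumor RNA, more cells that carry class II and more class II RNA per cell cannot be told apart.

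**Figure D1:**
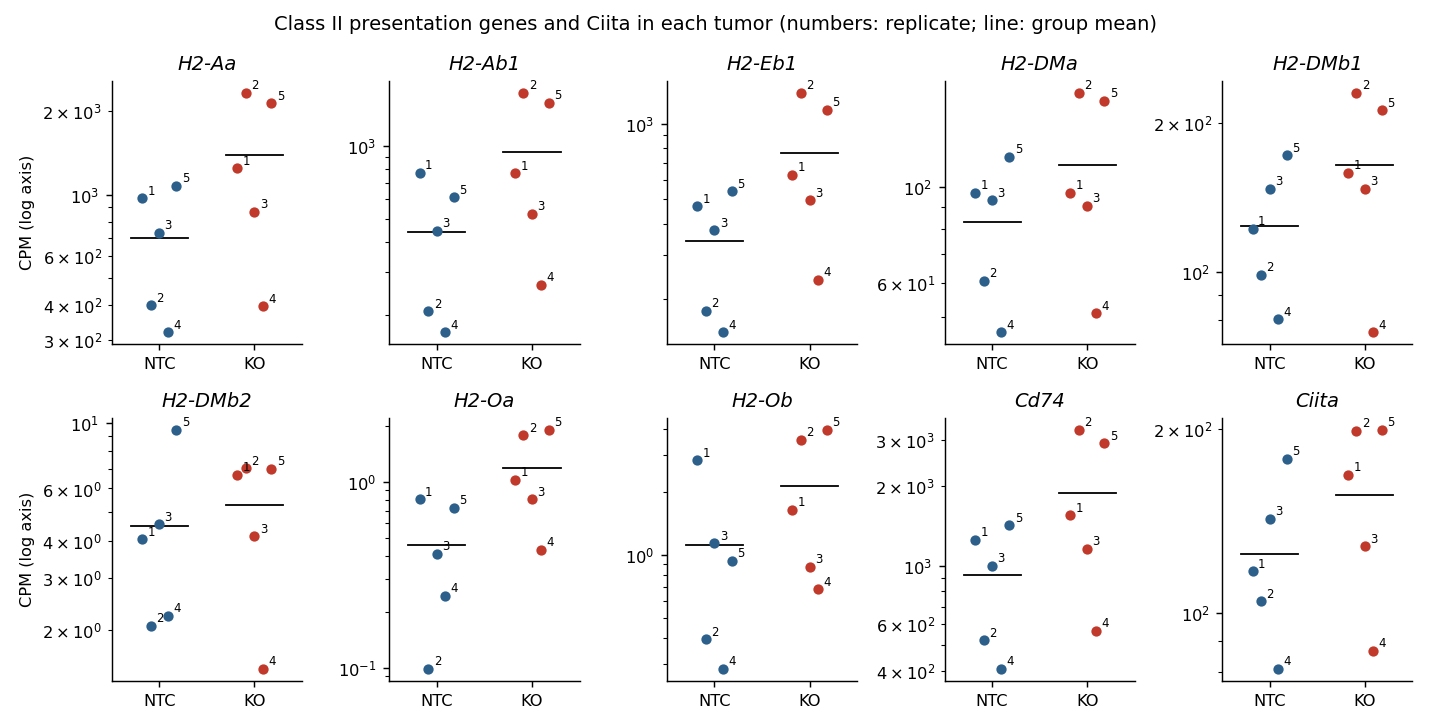
Level of each of the 10 genes in each tumor, in CPM on log axes that differ between panels. Points are tumors with their replicate number, blue for NTC and red for KO, and the line is the group mean; KO replicates 2 and 5 lead for the classical chains and *Cd74*, and the groups overlap in all 10 panels.

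None of the H2-DM genes passed the test. *H2-DMa*, the α chain of the peptide editor, was at 97.2, 165, 90.6, 51.1 and 158 CPM in KO and at 96.99, 60.7, 93.2, 46.2 and 118 CPM in NTC replicates. *H2-DMb1*, its main β chain here, was at 159, 230.1, 147.5, 75.7 and 212 CPM in KO and at 123, 98.9, 147.3, 80.4 and 172 CPM in NTC replicates. *H2-DMb2*, the second β chain gene, was at 6.68, 7.03, 4.14, 1.48 and 6.98 CPM in KO and at 4.04, 2.07, 4.54, 2.24 and 9.47 CPM in NTC replicates. NTC replicate 5 had the highest *H2-DMb2* and KO replicate 4 the lowest, and KO replicate 4 was also lowest of all 10 for *H2-DMb1*. The log2 fold changes were 0.44 for *H2-DMa* (standard error 0.34, adjusted p = 0.735 by edgeR), 0.41 for *H2-DMb1* (0.29 and 0.722) and 0.23 for *H2-DMb2* (0.50 and 0.913). These values moved with single tumors: that of *H2-DMa* ran from 0.26 without KO replicate 2 to 0.62 without KO replicate 4, that of *H2-DMb1* from 0.26 to 0.59 without the same tumors, and that of *H2-DMb2* from 0.04 without NTC replicate 2 to 0.71 without NTC replicate 5. *H2-DMb1* and *H2-DMb2* shared 27.2% and 25.2% of the 50-base stretches of their exons, and reads from those stretches may be lost or misassigned. *H2-DMa* shared 10.4% of its exonic length with *Brd2* on the opposite strand, and whether the counting used strand is not given in the sources used here.

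The H2-O modulators were the lowest of the 10 genes and rested on few reads. *H2-Oa*, the α chain, had 25, 47, 24, 12 and 43 counts in KO and 6, 3, 13, 6 and 21 counts in NTC replicates, or 1.03, 1.78, 0.808, 0.433 and 1.91 CPM against 0.808, 0.0985, 0.410, 0.244 and 0.729 CPM. *H2-Ob*, the β chain, had 40, 93, 26, 19 and 89 counts in KO and 21, 12, 36, 7 and 27 counts in NTC replicates, or 1.64, 3.53, 0.876, 0.685 and 3.96 CPM against 2.83, 0.394, 1.14, 0.285 and 0.937 CPM. NTC replicate 1 was the third highest tumor for *H2-Ob*. *H2-Oa* had the largest log2 fold change of the 10 genes, 1.45 (standard error 0.59, adjusted p = 0.505 by edgeR), and that of *H2-Ob* was 1.03 (0.69 and 0.704), or 1.57 without NTC replicate 1 and 0.68 without KO replicate 5. An antisense gene, *BC051537*, covered 22.8% of the exonic length of *H2-Oa*.

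*Ciita* varied least. It was at 168, 198, 128, 86.8 and 199 CPM in KO and at 117, 104, 143, 81.1 and 178 CPM in NTC replicates, a mean of 156 ± 48.3 against 125 ± 37.3 CPM. The log2 fold change of *Ciita* was 0.32, with a standard error of 0.26 (edgeR, adjusted p = 0.745), and ran from 0.20 without NTC replicate 4 to 0.49 without NTC replicate 5. Over all 10 tumors the highest CPM of *Ciita* was 2.46 times the lowest, against 3.04 for *H2-DMb1*, 3.57 for *H2-DMa* and 6.41 for *H2-DMb2*. The fold was 7.25 for *H2-Aa*, 8.04 for *Cd74*, 8.97 for *H2-Eb1* and 9.70 for *H2-Ab1*, and 13.9 and 19.4 for *H2-Ob* and *H2-Oa*. The transactivator thus spanned a narrower range than each of the other 9 genes. The folds of *H2-Ob* and *H2-Oa* rest on 3 to 93 counts.

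None of the 10 genes was called at an adjusted p under 0.05 and an absolute log2 fold change above 1, where 3 of 15821 genes tested were (0.019%). By edgeR, *H2-Oa* and *H2-Eb1* had an unadjusted p under 0.05, 2 of the 10 genes, against 8.85% of all genes. DESeq2 also called 0 of the 10, with 5 at an unadjusted p under 0.05 against 10.1% of all genes by that tool. The CPM of the groups overlapped for each of the 10, where they did not overlap in 2.34% of genes. All 10 log2 fold changes were above 0, with a median of 1.01 against 0.01 over all genes tested. The sign is not 10 separate observations, because the genes moved together from tumor to tumor. Without NTC replicate 1 the median was 1.12 and 4 of 10 had an unadjusted p under 0.05, against 20.1% of all genes, and again none was called.

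Genes of several leukocyte types lay on the same side of 0 as these genes, without passing the test. All 10 pan-leukocyte genes, all 9 macrophage genes and all 9 dendritic cell genes had a log2 fold change above 0, with medians of 0.85, 0.97 and 1.09, and none was called. Without NTC replicate 1 these medians were 1.49, 1.65 and 1.19, with 7, 9 and 4 genes at an unadjusted p under 0.05, against 20.1% of all genes in that fit, and again none was called. All 6 T cell genes were above 0 too, with a median of 1.20, or 1.52 without NTC replicate 1, and none was called. Neutrophil genes did not share this direction: of 3 that passed the filter on low counts 1 was above and 2 below 0, with a median of -0.85, or 3.10 without NTC replicate 1, the tumor with the highest summed level of these genes (98.2 CPM, against 7.46 to 53.0 CPM in KO tumors). The summed level ran from 808 to 3189 CPM in KO and from 510.2 to 2579 CPM in NTC tumors for the pan-leukocyte genes, from 950.4 to 4251 and from 311 to 3536 CPM for the macrophage genes, from 53.1 to 134 and from 25.3 to 78.0 CPM for the dendritic cell genes, and from 23.3 to 136 and from 13.6 to 61.7 CPM for the T cell genes. No gene of the pan-leukocyte, macrophage and dendritic cell lists was at 0 in a tumor. Of 8 B cell genes, which summed to 7.79 to 36.8 CPM in KO and 2.56 to 18.2 CPM in NTC tumors, 3 passed the filter on low counts, 2 above and 1 below 0 (median 0.83, or 1.49 without NTC replicate 1), and 4 were at 0 in some tumors. Skeletal muscle genes summed to 172 CPM in KO replicate 4 and 32.2 CPM in KO replicate 3, against 0.659 to 2.69 CPM in NTC tumors, and keratinocyte genes to 32.7 CPM in KO replicate 3 against 1.25 to 2.83 CPM. The part of these tissues in the class II values was not tested beyond leaving out each tumor, and without KO replicate 4 the log2 fold change of *H2-Aa* was 1.23. Once the leukocyte score entered the fit as a covariate, 0 of the 10 class II genes had an unadjusted p under 0.05 in edgeR, against 12.8% of all genes. Their median log2 fold change was then 0.09. That of *H2-Aa* was 0.18 (standard error 0.25), of *H2-Ab1* 0.20 (0.20), of *H2-Eb1* 0.36 (0.24), of *Cd74* 0.20 (0.25) and of *H2-Ob* 0.01 (0.27). *H2-Oa* kept the highest value, 0.63 (0.38), and *H2-DMa*, *H2-DMb2* and *Ciita* were below 0, at -0.08, -0.42 and -0.03. The score was 6.83 ± 0.956 in KO and 5.91 ± 1.16 in NTC tumors (SD, n = 5), and the groups overlapped.

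**Figure D2:**
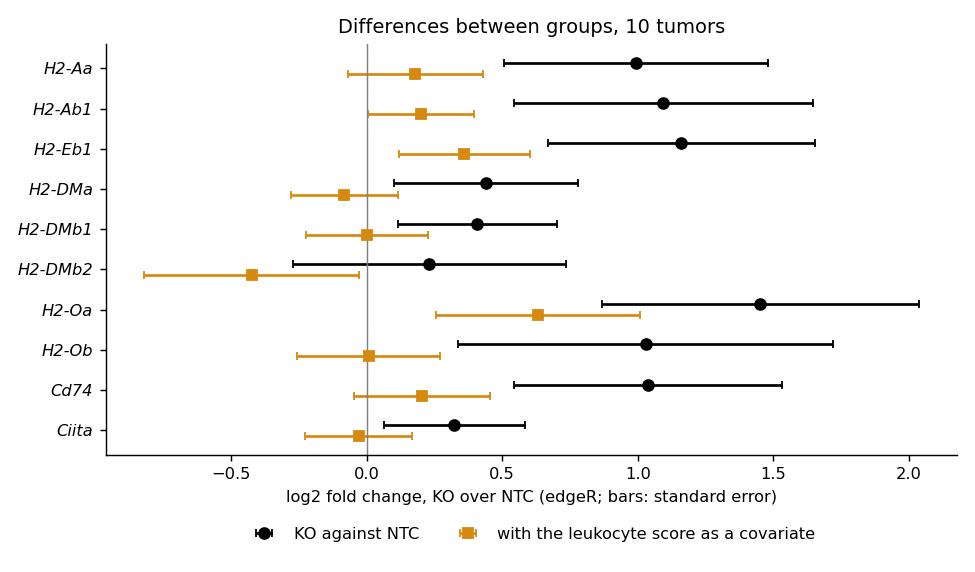
Log2 fold change of each gene, KO over NTC, from edgeR over 10 tumors, alone (black circles) or with leukocyte score as covariate (orange squares); bars are standard errors. The values run from 0.23 to 1.45 without the covariate and from -0.42 to 0.63 with it.

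Each of the 10 genes rose with the leukocyte score across the tumors, most tightly *H2-Ob*. Pearson's r over 10 tumors was 0.985 for *H2-Ob* (Spearman's rho 0.988, permutation p = 1e-05 for both, the smallest 100000 resamples can give, adjusted p = 0.0001 over the 10 genes). It was 0.963 for *H2-Ab1* (rho 0.976), 0.923 for *H2-Oa* (rho 0.867), 0.921 for *Cd74* (rho 0.939), 0.919 to 0.920 for *H2-Eb1* (rho 0.891) and *H2-Aa* (rho 0.927) and 0.874 for *H2-DMa* (rho 0.927). The lowest were *H2-DMb1* (r 0.778, rho 0.806), *Ciita* (r 0.772, rho 0.855) and *H2-DMb2* (r 0.717, rho 0.721). All 10 had an adjusted permutation p of 0.0221 or less for r. Level and score share the library and its scaling. Without the 2 tumors farthest from the median score, KO replicate 5 and NTC replicate 4, r stayed between 0.774 and 0.974 for 7 genes, whereas for *H2-DMb1*, *H2-DMb2* and *Ciita* it was 0.635, 0.633 and 0.603 with permutation p = 0.0878, 0.0905 and 0.112. In those 3 genes the relation thus no longer passed over 8 tumors. With the group means subtracted r was 0.743, 0.729 and 0.736, and without NTC replicate 1 it was 0.874, 0.776 and 0.892.

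**Figure D3:**
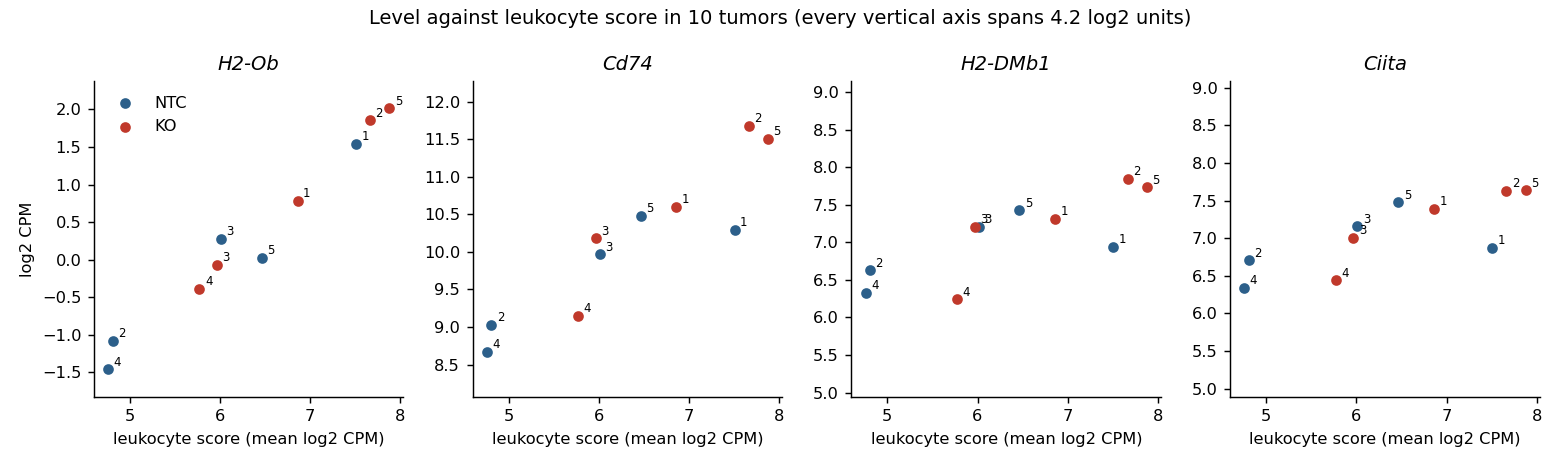
Log2 CPM against the leukocyte score in 10 tumors for *H2-Ob*, *Cd74*, *H2-DMb1* and *Ciita*, blue for NTC and red for KO, with replicate numbers; every vertical axis spans the same number of log2 units. *H2-Ob* climbs steeply along 1 line (r 0.985), and *H2-DMb1* and *Ciita* are flatter, with NTC replicate 1 below the other tumors of like score.

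Over the 10 tumors the classical chains and *Cd74* kept step with each other. *H2-Aa* correlated at r 0.998 with *Cd74*, 0.992 with *H2-Eb1* and 0.990 with *H2-Ab1*, and *Cd74* ranked first among 15820 genes ordered by likeness to *H2-Aa*. Outside the 10 genes the most like *H2-Aa* were *Ccl5*, a T cell-attracting chemokine (r 0.992), the class I gene *H2-D1* (0.984), *Itpripl2* (0.984), *Naprt* (0.983), an enzyme of NAD synthesis, and the ion channel *Trpm2* (0.982). *Ciita* was most like *H2-DMb1* (r 0.978), and *H2-DMa* ranked sixth (0.957). Outside the 10 genes it was most like *Zbtb42* (0.969), the kinase *Tyk2* (0.967), the innate sensor *Nod1* (0.964), the immunoproteasome subunit *Psmb8* (0.960) and the protease inhibitor *Cst7* (0.950). *H2-Oa* and *H2-Ob* were farthest from *Ciita*, at 0.784 and 0.764. These values share libraries and scaling and describe these 10 tumors.

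The ratio of genes within a tumor does not depend on library scaling, except through the 0.5 added to each count where counts are near 0. Among 12 ratios between chains, none passed after adjustment in a two-sided exact permutation test over 252 splits, whose smallest p is 0.00794, so that after adjustment a ratio could pass only together with others. The ratio of *H2-Eb1* to *H2-Aa* reads was 0.502, 0.572, 0.570, 0.602 and 0.535 in KO and 0.483, 0.451, 0.517, 0.462 and 0.499 in NTC replicates. KO replicate 1 lay below the highest NTC tumor, and the other 4 KO tumors were above every NTC tumor. The difference in mean log2 ratio was 0.20 (standard error 0.058, exact permutation p = 0.0159, adjusted p = 0.0952). The ratio of *H2-Oa* to *H2-DMa* reads was 0.0108, 0.0109, 0.00911, 0.00882 and 0.0122 in KO and 0.00902, 0.00189, 0.00457, 0.00572 and 0.00634 in NTC replicates, with a difference of 1.07 (standard error 0.39, exact permutation p = 0.0159, adjusted p = 0.0952). NTC replicate 2, with its 3 counts of *H2-Oa*, was lowest, and without it the difference was 0.73. *H2-DMa* to *H2-Aa* differed by -0.49 (standard error 0.20, exact permutation p = 0.0556, adjusted p = 0.222), a lower ratio of editor to classical chain in KO tumors that was not separable from the spread. Without NTC replicate 1, 6 of the 12 ratios had an unadjusted exact permutation p under 0.05, against 2 with it, and none passed after adjustment (lowest adjusted p = 0.0762).

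The ratio of the partner chains of I-A overlapped between the groups. *H2-Ab1* to *H2-Aa* was 0.618, 0.711, 0.602, 0.672 and 0.705 in KO and 0.797, 0.519, 0.609, 0.531 and 0.568 in NTC replicates, with a log2 difference of 0.15 (standard error 0.12, exact permutation p = 0.262). NTC replicate 1 had the highest ratio of all, and without it the difference was 0.25 (exact permutation p = 0.0317, adjusted p = 0.0762). Without NTC replicate 2 the difference was 0.094. *Cd74* to *H2-Aa* was the tightest ratio, from 1.25 to 1.43 in KO and from 1.27 to 1.37 in NTC tumors, with a log2 difference of 0.05 (standard error 0.040, exact permutation p = 0.270). *H2-DMb1* to *H2-DMa* ran from 1.34 to 1.63 in KO and from 1.26 to 1.74 in NTC tumors. *H2-Ob* to *H2-Oa* ran from 1.08 to 2.06 and from 1.15 to 3.57.

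Relative to *Ciita*, the chains were higher in KO tumors on average and H2-DM was level. *H2-Aa* to *Ciita* reads were 7.41, 11.7, 6.77, 4.58 and 10.7 in KO and 8.29, 3.83, 5.11, 3.95 and 6.04 in NTC replicates. NTC replicate 1 had more *H2-Aa* per *Ciita* read than 3 KO tumors. The log2 differences were 0.58 for *H2-Aa* (standard error 0.32), 0.72 for *H2-Ab1* (0.41), 0.78 for *H2-Eb1* (0.32) and 0.63 for *Cd74* (0.32), with exact permutation p = 0.111, 0.119, 0.0635 and 0.0952. *H2-Oa* to *Ciita* differed most, by 1.16 (standard error 0.48, exact permutation p = 0.0317), and by 0.77 without NTC replicate 2. None of the 9 ratios passed after adjustment, with a lowest adjusted p of 0.214. *H2-DMb1* to *Ciita* was 0.946, 1.16, 1.15, 0.872 and 1.07 in KO and 1.05, 0.947, 1.03, 0.992 and 0.965 in NTC replicates, so that the editor's β chain and the transactivator had nearly equal read numbers in every tumor. Its log2 difference was 0.05 (standard error 0.085), and those of *H2-DMa* and *H2-DMb2* were 0.09 (0.14) and -0.05 (0.31). Without NTC replicate 1 these 3 were 0.07, 0.17 and -0.02, and 5 of the 9 ratios had an unadjusted exact permutation p under 0.05, against 1 with it, none of which passed after adjustment (lowest adjusted p = 0.0714).

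**Figure D4:**
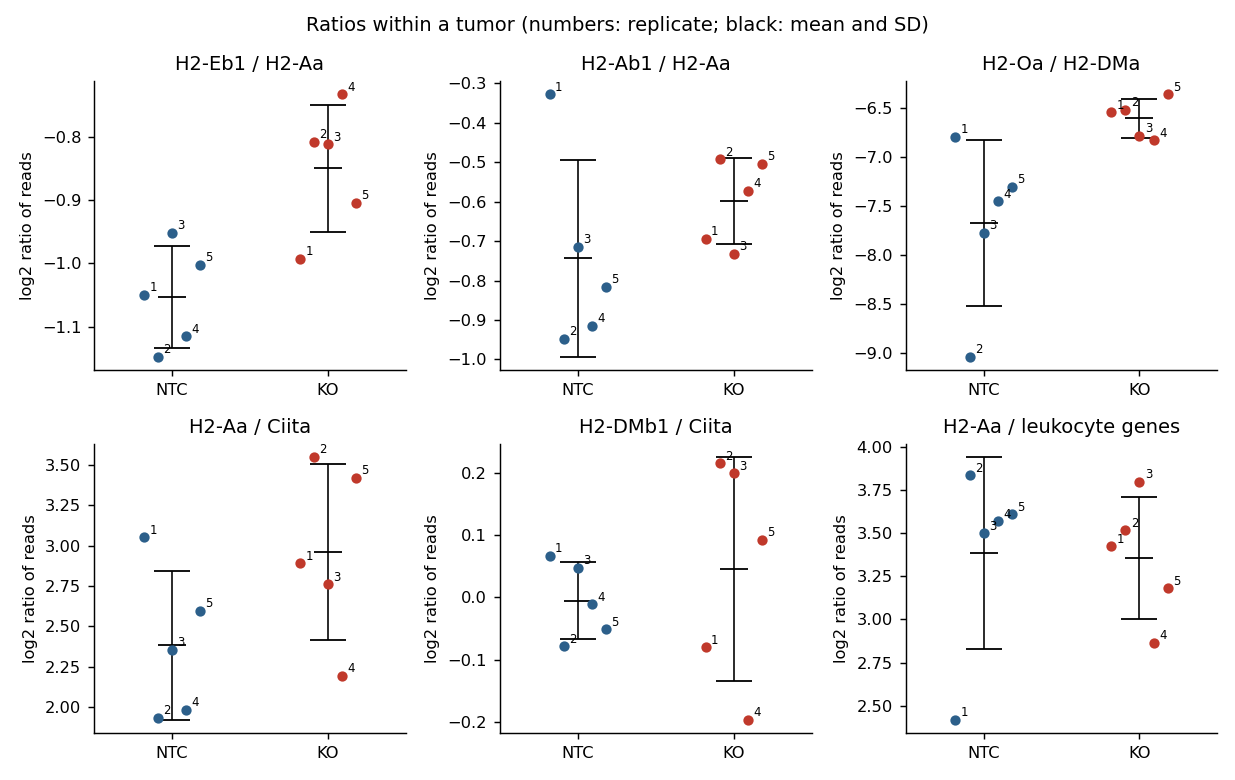
Log2 ratio of reads within each tumor for 6 pairs, NTC in blue and KO in red with replicate numbers; black marks show the mean and SD (n = 5), and the vertical axes differ between panels. *H2-Eb1* to *H2-Aa* and *H2-Oa* to *H2-DMa* lie higher in KO tumors with overlap, and NTC replicate 1 is lowest for *H2-Aa* to leukocyte genes.

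Relative to leukocyte genes the classical chains did not separate the groups. *H2-Aa* to the mean of the 10 pan-leukocyte genes was 10.7, 11.5, 13.9, 7.28 and 9.07 in KO and 5.34, 14.3, 11.3, 11.9 and 12.2 in NTC replicates. NTC replicate 1 was lowest, and the other 4 NTC tumors lay within or just above the range of the KO tumors. The log2 differences were -0.03 for *H2-Aa* (standard error 0.30), 0.12 for *H2-Ab1* (0.20), 0.17 for *H2-Eb1* (0.29), 0.02 for *Cd74* (0.29) and 0.12 for *H2-Ob* (0.16), the last 0.03 without NTC replicate 5 and 0.21 without NTC replicate 3. *H2-DMa*, *H2-DMb1*, *H2-DMb2* and *Ciita* had values of -0.52, -0.56, -0.66 and -0.61, with standard errors of 0.39 to 0.50. Without NTC replicate 2, *H2-DMa* was at -0.34, *H2-DMb1* at -0.35 and *Ciita* at -0.38, and without NTC replicate 5 *H2-DMb2* was at -0.47. The difference of *H2-Oa* was 0.55 (standard error 0.27, exact permutation p = 0.103), and this p was the lowest of the 10. Without NTC replicate 1 the differences were -0.27 for *H2-Aa*, -0.02 for *H2-Ab1*, -0.07 for *H2-Eb1* and -0.23 for *Cd74*, and those of *H2-DMa*, *H2-DMb1*, *H2-DMb2* and *Ciita* were -0.85, -0.95, -1.03 and -1.02. The last 4 then had exact permutation p = 0.0317, 0.0317, 0.0238 and 0.0238, each with an adjusted p of 0.0794, so that none of the 10 passed. *Ciita* to leukocyte genes was 1.45, 0.979, 2.06, 1.59 and 0.847 in KO and 0.645, 3.74, 2.21, 3.005 and 2.02 in NTC replicates. NTC replicates 2 and 4, the tumors with the fewest leukocyte reads, had the most *Ciita* per leukocyte read. Over the 10 tumors log2 CPM of *Ciita* ran from 6.34 to 7.64 and the leukocyte score from 4.76 to 7.88. The denominator thus moves this ratio more than *Ciita* does.

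Of 30 ratios to macrophage, dendritic cell and B cell genes, 5 had an unadjusted exact permutation p under 0.05 and none passed after adjustment (lowest adjusted p = 0.286). Relative to dendritic cell genes, *H2-DMa* differed by -0.72 (exact permutation p = 0.0159), *H2-DMb1* by -0.76 (0.0476), *H2-DMb2* by -0.86 (0.0238) and *Ciita* by -0.81 (0.0476). The classical chains and *Cd74* differed by -0.23 to -0.03 on that scale. Without KO replicate 4 the values were -0.063 for *H2-Aa*, 0.075 for *H2-Ab1*, 0.11 for *H2-Eb1* and -0.037 for *Cd74*. *H2-Oa* relative to B cell genes differed by 1.14 (exact permutation p = 0.0317). Among members to macrophage genes, the values ran from -0.93 for *H2-DMb2* to 0.27 for *H2-Oa*. Without NTC replicate 1 they ran from -1.41 to 0.07 for the same 2 genes. Of the 30 ratios 14 then had an unadjusted exact permutation p under 0.05, and none passed after adjustment (lowest adjusted p = 0.0714).

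Levels were compared between genes per kilobase of exon. The length joins all annotated exons of a gene (3.798 kilobases for *H2-Aa*, 1.679 for *Cd74*, 9.535 for *Ciita*), and a single transcript may be shorter. The order between genes therefore depends on the lengths taken. In KO tumors the means were 1127 ± 688 CPM per kilobase for *Cd74*, 394 ± 233 for *H2-Eb1*, 367 ± 237 for *H2-Ab1*, 367 ± 216 for *H2-Aa*, 98.1 ± 36.2 for *H2-DMb1* and 32.6 ± 14.03 for *H2-DMa*. *Ciita* followed at 16.4 ± 5.07, *H2-DMb2* at 3.01 ± 1.39, *H2-Oa* at 0.848 ± 0.453 and *H2-Ob* at 0.397 ± 0.282 (SD, n = 5). In NTC tumors they were 549 ± 266 for *Cd74*, 184 ± 88.5 for *H2-Aa*, 176 ± 89.0 for *H2-Eb1*, 172 ± 101 for *H2-Ab1*, 73.9 ± 21.8 for *H2-DMb1*, 24.1 ± 8.40 for *H2-DMa*, 13.1 ± 3.92 for *Ciita*, 2.56 ± 1.72 for *H2-DMb2*, 0.325 ± 0.217 for *H2-Oa* and 0.207 ± 0.190 for *H2-Ob*. The means of the 3 classical chains lay closer together than the SD between tumors in both groups. That spread is shared by the chains, and no paired test within tumors was run. *H2-Eb1* was above *H2-Ab1* in 5 of 5 KO and 4 of 5 NTC tumors. *Cd74* was above each classical chain in every tumor, and the order from *H2-DMb1* through *H2-DMa* and *Ciita* to *H2-DMb2* held within each of the 10 tumors. Between tumors, neighbouring genes overlapped except *Ciita* and *H2-DMb2* in both groups, and *H2-DMb1* and *H2-DMa* and *H2-DMb2* and *H2-Oa* in NTC tumors.

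The other genes of the pathway were read from lists. Of the 7 genes of the class II transcription complex, none was called and the median log2 fold change was 0.05. *Rfx5*, which binds the X box, was at 22.9 ± 2.24 CPM in KO and 20.7 ± 3.53 CPM in NTC tumors. The most abundant of them was *Creb1* (119.7 against 118.7 CPM), and *Nfya*, an NF-Y subunit, had the largest log2 fold change, 0.29 (standard error 0.10, adjusted p = 0.434 by edgeR). The log2 fold changes of the 7 factors ran from -0.12 to 0.29.

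Of 10 genes that lead from interferon-γ to *Ciita*, none was called (median 0.20). *Ifng* was at 3.69, 5.01, 1.92, 1.01 and 8.36 CPM in KO and at 3.37, 1.94, 3.75, 1.26 and 3.05 CPM in NTC replicates. KO replicates 5 and 2, the tumors with the most class II RNA, also had the most *Ifng*. *Irf1*, an interferon-induced activator, was at 461 ± 91.9 against 475 ± 84.6 CPM, and the receptor chain *Ifngr1* had the largest log2 fold change, 0.75 (standard error 0.46, adjusted p = 0.668 by edgeR), or 1.13 without NTC replicate 1 (adjusted p = 0.192). With the leukocyte score in the fit the median was -0.07 and *Ifngr1* at 0.03.

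Of 9 genes of endosomal processing, all lay above 0 (median 0.62) and none was called. The median was 1.09 without NTC replicate 1, with 6 of the 9 at an unadjusted p under 0.05 against 20.1% of all genes, and -0.02 with the leukocyte score as covariate. *Ctss*, the protease that trims the invariant chain, was at 2039, 3154, 573, 547 and 4642 CPM in KO and at 2875, 219.7, 436, 203 and 784 CPM in NTC replicates. NTC replicate 1 was the third highest tumor for *Ctss*. For *Ctss* the log2 fold change was 1.28 with a standard error of 0.84 (edgeR, adjusted p = 0.693), 2.37 without NTC replicate 1 (adjusted p = 0.163) and 0.27 with the leukocyte score. *Ctsb*, the most abundant, was at 2294 ± 1555 against 1320 ± 1064 CPM, with a log2 fold change of 0.80, or 1.37 without NTC replicate 1 (edgeR, adjusted p = 0.192) and -0.07 with the score.

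Of 6 genes of surface turnover and *Cd74* partners none was called (median 0.47, or 0.86 without NTC replicate 1 and 0.02 with the leukocyte score). *Marchf1*, a ubiquitin ligase that removes class II from the surface, had a log2 fold change of 0.96 (standard error 0.80, adjusted p = 0.752 by edgeR), or 1.85 without NTC replicate 1 (adjusted p = 0.203) and 0.0056 with the score, and *Cd44*, which signals with *Cd74*, one of 0.07. *Lag3*, a T cell receptor for class II, was at 7.34, 12.6, 3.07, 2.49 and 10.5 CPM in KO and at 2.16, 1.41, 1.39, 0.854 and 6.14 CPM in NTC replicates. *Lag3* had a log2 fold change of 1.58 with a standard error of 0.62 (edgeR, adjusted p = 0.493), and that of *Cd3e*, the most abundant of the 3 genes of that list over both groups, was 1.40. With the score these were 0.62 and 0.43, and *Cd3e* was at 2.00 without NTC replicate 1. Neither these 3 nor the 4 co-stimulatory genes were called, with *Cd86* at 0.77 and *Cd40* at 0.85. The co-stimulatory median was 0.62, or 1.19 without NTC replicate 1, where *Cd86* was at 1.27. With the score that median was -0.14, with *Cd86* at -0.04 and *Cd40* at 0.04.

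The 6 tested other genes of the class II locus had a median of 0.13, with *Tap1* at 0.08 and *Psmb8* at 0.31, and without NTC replicate 1 the median was 0.04 and *Tap1* at -0.02. *Nlrc5*, the class I counterpart of *Ciita*, *H2-K1*, *H2-D1* and *B2m* had a median of 0.23, with *B2m* at 0.09, or 0.25 without NTC replicate 1, and *H2-D1* at 0.54. With the score the medians of both lists were -0.06 and -0.02. None was called.

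*Btn2a2*, a butyrophilin whose promoter stretch is printed with those of the class II genes, was the single gene of its list. It was entered with earlier results of these data known and passed the filter on low counts through the KO tumors, so its values are a description with no test. It was at 85.3, 41.9, 120.3, 119 and 35.8 CPM in KO and at 0.269, 0.0328, 0.536, 0.0813 and 0.278 CPM in NTC replicates, from 804 to 3571 and from 1 to 17 counts. The groups did not overlap. KO replicates 2 and 5, highest for *H2-Aa*, were the lowest KO tumors for *Btn2a2*, so that it did not follow the class II genes within the KO group.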

How the data were processed

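RNA from 10 B16F10 tumors (5 KO, 5 NTC; groups and replicate numbers from the sample labels) was sequenced in bulk. Per the labels, the submitters' processing notes name FastQC, Trimmomatic, HISAT2 and HTSeq with mm10, and the authors deposited raw counts per gene. HTSeq leaves reads that map to several places or genes uncounted; its strand setting and the annotation are not given in the sources used here. Rows that name no gene (35.3% to 64.1% of a library's total) were left out. Gene positions and exon lengths came from GENCODE M21, and promoter windows from RefSeq (GRCm38.p6).

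Counts were tested with edgeR 4.0.16 (quasi-likelihood, TMM, filterByExpr, Benjamini-Hochberg over 15821 genes; called at an adjusted p under 0.05 and an absolute log2 fold change above 1), without covariates. CPM are on TMM-scaled libraries. Ratios are log2 of counts plus 0.5 within a tumor, tested by two-sided exact permutation over 252 splits and adjusted within 4 families of 12, 9, 10 and 30 ratios (61 in all). Lists were scored as the mean log2 CPM, or log2 count for ratios, of their genes. Correlations used 100000 resamples. Named genes were the 10 members, the most abundant and most changed gene of each pathway list with any gene called, *Ifng*, *Irf1*, *Rfx5* and *Btn2a2*, and the 5 genes most like *H2-Aa* and *Ciita*; some named genes are not reported here. The members and lists were chosen with earlier results of these data known. The edgeR step was tested on simulated data for this comparison: over 15737 genes it recovered 94 of 100 genes changed 2-fold and 100 of 100 changed 4-fold, and called 8 unchanged genes, where DESeq2 recovered as many and called 22. Every simulated gene had a dispersion of 0.05, below the 0.0912 to 0.520 edgeR estimated for the 10 members, so this recovery does not carry over to them. Alternatives were DESeq2 1.42.0, RLE factors, other filters, a replicate block, the leukocyte score as a covariate, robust dispersion, no fold threshold, 2 counts added, other denominators, and leaving out each tumor. Counts have no molecular identifiers, and no count intervals are given because the spread between tumors sets the precision.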

Additional observations from a re-analysis of the deposited data

Results flagged for a closer look

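Of 142 sets of 5 values (a gene's log2 CPM or a log2 ratio in 1 group), 18 held a tumor set apart from the other 4 of its group by more than Dixon's 95% criterion, where chance gives about 1 in 20, and 14 of the 18 were NTC replicate 1. The sets share genes and denominators and are not independent.

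In NTC replicate 1 the log2 ratio was low for classical chains against leukocyte genes: 2.42 for *H2-Aa*, 1.37 for *H2-Eb1* and 2.79 for *Cd74*, against 3.50 to 3.84, 2.45 to 2.69 and 3.92 to 4.22 in the other NTC tumors. *H2-DMb2* to leukocyte genes was -5.47, against -3.82 to -3.22. Against macrophage genes the values were 1.58 for *H2-Aa*, 1.25 for *H2-Ab1*, 0.53 for *H2-Eb1*, 1.95 for *Cd74* and -6.30 for *H2-DMb2*, each below the other 4. Against B cell genes, *H2-DMa* was at 7.05, *H2-DMb1* at 7.39 and *Ciita* at 7.32, likewise lowest. *H2-Ab1* was high relative to its partners in this tumor, with a log2 ratio of -0.72 for *H2-Eb1* to *H2-Ab1* (others -0.24 to -0.19) and 0.70 for *Cd74* to *H2-Ab1* (others 1.17 to 1.33). This library also had the lowest depth of the series.

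KO replicate 4 was low for *H2-DMb2* to *Ciita* (-5.86, others -4.95 to -4.65) and for *H2-Aa* to dendritic cell genes (7.48, others 8.24 to 8.37). KO replicate 3 was high for *H2-Oa* to leukocyte genes (-6.24, others -6.92 to -6.79) and for *H2-DMa* to dendritic cell genes (5.00, others 4.52 to 4.62).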

How the results depend on the processing

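The 10 genes were called in none of the settings run, with a lowest adjusted p of 0.196 (*H2-Oa*, edgeR without NTC replicate 1). Over all genes, edgeR called 1 higher and 2 lower in KO; DESeq2 called 24 and 72, at least 10 counts in every tumor 0 and 6 (only 8 of the 10 genes tested), the leukocyte score as a covariate 4 and 6, and robust dispersion and no fold threshold 4 lower each. Leaving out 1 tumor gave 1 to 2 higher and 0 to 15 lower, with 2 and 15 without NTC replicate 1. The cause was not tested. The replicate numbers were not taken as pairs, since the correlations of same-numbered deviations were uneven (0.17, -0.29, 0.08, 0.63 and 0.21; 2 of 5 KO and 1 of 5 NTC tumors matched best by number); with the replicate block 1 gene was called higher, 0 lower and 0 of the 10. No ratio passed after adjustment in any setting, which says nothing about stability: with the block the smallest possible p is 0.0625, reached by 6 ratios and among chains by *H2-Eb1* to *H2-Aa*, *H2-DMa* to *H2-Aa* and *H2-Oa* to *H2-DMa*, each of 1 sign in all 5 pairs.

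With the leukocyte score as a covariate the log2 fold change changed sign for *H2-DMa* (-0.083), *H2-DMb2* (-0.42) and *Ciita* (-0.031). Ratios near 0 changed sign. With *Ptprc* as the leukocyte denominator *H2-Ab1* was at -0.012, *H2-Ob* at -0.00432 and *Cd74* at -0.11, and with summed leukocyte counts *H2-Aa* was at 0.15. With 2 counts added *H2-Eb1* to dendritic cell genes was 0.044, *H2-DMb2* to B cell genes 0.024 and *Ciita* to B cell genes 0.085. Leaving out 1 tumor moved *H2-DMb2* to *H2-DMa* from -0.29 to 0.044, *H2-DMb2* to *H2-DMb1* from -0.25 to 0.094, *H2-DMb1* to *H2-DMa* from -0.10 to 0.013, *H2-Eb1* to *H2-Ab1* from -0.044 to 0.097 and *H2-DMb2* to *Ciita* from -0.22 to 0.16. To leukocyte genes the ranges were -0.23 to 0.13 for *Cd74*, -0.27 to 0.093 for *H2-Aa*, -0.023 to 0.23 for *H2-Ab1* and -0.067 to 0.27 for *H2-Eb1*. To B cell genes they were -0.50 to 0.26 for *H2-DMb2*, -0.48 to 0.12 for *Ciita*, -0.31 to 0.21 for *H2-DMa* and -0.41 to 0.17 for *H2-DMb1*. To dendritic cell genes they were -0.093 to 0.11 for *H2-Eb1*, -0.26 to 0.16 for *H2-Ob* and -0.17 to 0.075 for *H2-Ab1*, and *H2-Eb1* to macrophage genes ran from -0.44 to 0.022.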
